A study of Mus musculus with 4 samples.

Results

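The endoplasmic reticulum (ER) chaperones and the protein-conducting channel of its membrane were followed through 10 genes: Hspa5, Hsp90b1, Calr, Canx, Pdia3, Pdia6, P4hb, Serpinh1, Sec61a1 and Sec61b. They were chosen by gene symbol, with earlier results of these data known, and all 10 were found among the 16472 genes of the deposited table. RNA of wild-type (WT) mouse skeletal muscle was sequenced in 4 libraries, 2 of isolated mitochondria and 2 of remaining tissue, a group whose treatment label names tissue without its mitochondria and whose titles say total; a legend of the study also has the RNA come from lysates of total muscle. The group is called remaining tissue after its treatment label. Whether the second group is whole or depleted tissue is therefore not settled. All 4 libraries share genotype, organ and library kit, and no age, sex or animal is given for them, so that p-values measure only the spread between these libraries, which may be technical. Mitochondria were prepared by fractionation of a whole organ that holds many cell types, and in such bulk samples fewer cells of a type and less RNA per cell cannot be told apart.

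Secreted and membrane proteins enter the ER while they are made: a signal peptide brings the translating ribosome to the Sec61 channel in the membrane, so that many of their mRNAs lie on the ER surface. Inside, Hspa5 (BiP) and Hsp90b1 (GRP94) hold unfolded chains, calnexin (Canx) and calreticulin (Calr) bind glycoproteins together with the oxidoreductase Pdia3 (ERp57), and P4hb and Pdia6 form disulfide bonds. In muscle fibres most of this membrane system is specialised as sarcoplasmic reticulum, a calcium store, whereas collagen-secreting fibroblasts hold much rough ER. The comparison asked whether mRNAs that are translated at the ER were present in the mitochondrial preparation, and at which level.

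Most soluble chaperones carry a retrieval signal at the end of the protein that brings them back from the Golgi apparatus. The last 27 coding bases of each member are shown because the classical form of this signal is encoded there in some members and not in others. They were read from GENCODE M21 transcripts on GRCm38, 5′ to 3′ in gene sense, and capitals mark the 12 bases before the stop codon, where the signal is encoded.
Hspa5 (chr2:34776087-34776113, plus strand): gatacatcagaaAAAGATGAGTTGtag
Hsp90b1 (chr10:86691102-86691128, minus strand): gaatctacagagAAGGATGAATTGtaa
Calr (chr8:84842647-84842673, minus strand): cctggccaagccAAGGATGAGCTGtag
Pdia6 (chr12:17283980-17284006, plus strand): gatgacctggagAAGGATGAGTTGtga
P4hb (chr11:120561183-120561209, minus strand): cagaaagctgtgAAGGATGAACTGtag
Serpinh1 (chr7:99346120-99346146, minus strand): ggagacaagatgCGAGATGAGTTGtag
Pdia3 (chr2:121437673-121437699, plus strand): aagaagaaggcaCAAGAGGACCTCtaa
Canx (chr11:50296282-50296308, minus strand): agaaacagaaagCCACGAAGAGAGtga
Sec61a1 (chr6:88505107-88505133, minus strand): ggcagcatgggaGCCCTTCTCTTCtga
Sec61b (chr4:47483036-47483062, plus strand): atttggggcaagTACACGCGATCAtag
The codons of the classical retrieval signal, after which the KDEL receptors are named, closed 5 members: Hspa5, Hsp90b1, Calr, Pdia6 and P4hb. No 2 members shared the same 12 bases. Serpinh1, which is lumenal, differed from Hspa5 and Pdia6 in the first of these 4 codons and shared the other 3. Pdia3, also lumenal, did not end in the codons of the classical signal, nor did the membrane proteins Canx, Sec61a1 and Sec61b. Whether the endings of Serpinh1 and Pdia3 act as a retrieval signal was not examined.

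The starts of the coding sequences are shown for 3 members because they encode the part of the protein that meets the targeting machinery first. Calreticulin and Pdia3 begin with a cleaved signal peptide, while Sec61b is a tail-anchored protein without one. The first 60 coding bases are given with the start codon in capitals, and those of Sec61b join 2 exons.
Calr (chr8:84846739-84846798, minus strand): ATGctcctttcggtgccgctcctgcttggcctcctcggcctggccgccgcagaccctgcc
Pdia3 (chr2:121414039-121414098, plus strand): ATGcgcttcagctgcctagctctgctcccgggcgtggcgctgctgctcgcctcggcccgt
Sec61b (chr4:47474751-47474968, plus strand): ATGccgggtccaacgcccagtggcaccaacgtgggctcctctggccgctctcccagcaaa

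Transcripts of the ER chaperones were present in isolated mitochondria and, on the deposited scale, at higher values than in remaining tissue. The deposited values are counts that the authors divided by a size factor per library and are called normalized counts. Of the 9 members with enough counts to be tested, 4 were higher at an adjusted p under 0.05 (limma on log2 of the normalized count plus 1, Benjamini-Hochberg over all genes tested): Pdia3, Hsp90b1, Calr and P4hb. None was lower, against 7.32% of the 6916 genes tested that were higher and 9.30% that were lower. As a share of all reads, in contrast, every member was lower in isolated mitochondria. Mitochondrially encoded RNA took 95.3 and 94.1% of the reads there and 22.3 and 20.53% in remaining tissue.

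The depth behind these values differed between groups. Remaining tissue held an estimated 15702133 and 15300004 reads, whereas isolated mitochondria held 42751199 and 35305953 reads, of which only 91295 and 166395 fell on nuclear genes other than predicted genes and pseudogenes. Replicates correlated across genes with Pearson coefficients of 0.983 in remaining tissue and 0.709 in isolated mitochondria (genes are not independent replicates), and both pairs differed by more than counting noise.

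**Figure D1:**
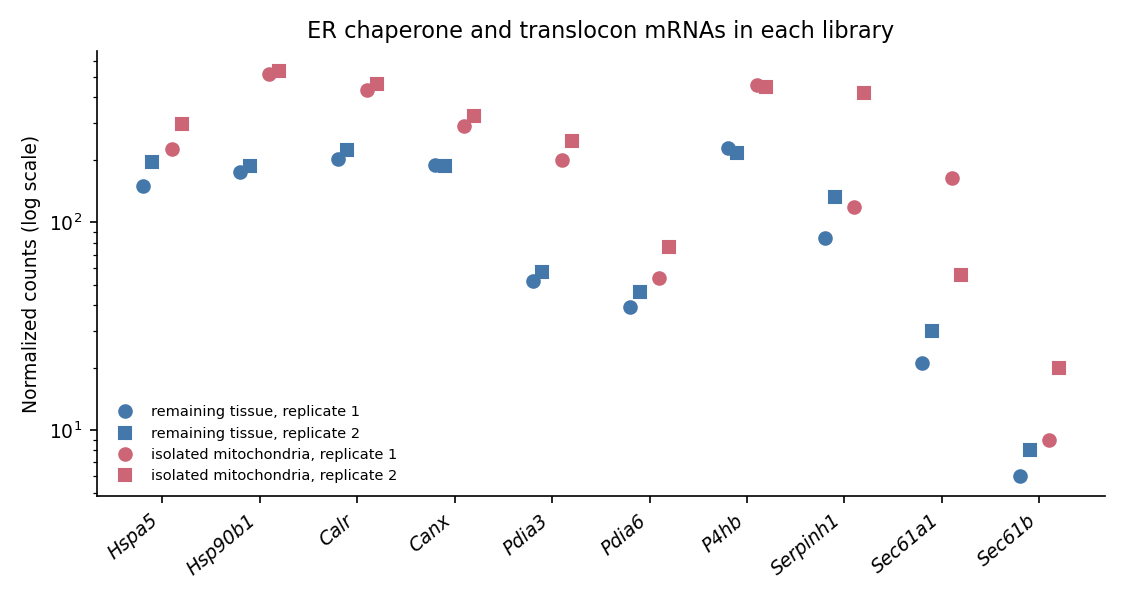
Normalized counts (log scale) of the 10 members in each library, with 1 point per library, 2 of remaining tissue and 2 of isolated mitochondria. The points of isolated mitochondria lie above those of remaining tissue for every member except Serpinh1, whose groups overlap. Sec61b rests on 5 reads in isolated mitochondria, and no direction is read for it. As a share of all reads the order of the groups is turned round.

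Hsp90b1, the ER member of the HSP90 family that folds integrins and Toll-like receptors, was higher in isolated mitochondria on the deposited scale. Hsp90b1 (ENSMUSG00000020048, chr10:86690209-86705509, minus strand) had 175 and 187 normalized counts in remaining tissue, against 516 and 536 in isolated mitochondria. The latter rest on 57 and 106 reads. Values are given with replicate 1 first, here and throughout, and replicate numbers are not known to pair libraries. The groups were clearly apart, with a log2 fold change of 1.53 ± 0.18 (SE, n = 2 per group) and an adjusted p of 0.0189 (limma). Hspa5, the lumenal HSP70 and sensor partner of the unfolded protein response, stood at 150 and 196 normalized counts in remaining tissue and at 226 and 298 in isolated mitochondria (25 and 59 reads). Hspa5 (ENSMUSG00000026864, chr2:34771970-34777547, plus strand) did not overlap between groups, but its log2 difference of 0.60 ± 0.26 (SE, n = 2 per group) did not pass the test (limma, adjusted p = 0.187).

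In the glycoprotein cycle, calreticulin and Pdia3 were higher and calnexin did not pass the test, though it passed under more than one other way of analysis. Calr (ENSMUSG00000003814, chr8:84841850-84846934, minus strand) had 203 and 224 normalized counts in remaining tissue and 434 and 465 in isolated mitochondria (48 and 92 reads). Its log2 fold change was 1.07 ± 0.18 (SE, n = 2 per group; limma, adjusted p = 0.0342). Canx, the membrane-bound relative of calreticulin (ENSMUSG00000020368, chr11:50293961-50325673, minus strand), had 189 and 186 normalized counts in remaining tissue and 290 and 324 in isolated mitochondria (32 and 64 reads). Both libraries of isolated mitochondria were above both of remaining tissue for Canx, with a log2 difference of 0.71 ± 0.19 (SE, n = 2 per group; limma, adjusted p = 0.0770). Canx was called higher in 8 of 15 alternatives and Calr in 11, so that the call does not set the pair apart, and the difference between them was not tested. Over the alternatives in which Canx was positive its adjusted p ranged from 1.19e-06 with DESeq2 to 0.722 without remaining tissue replicate 2.

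Pdia3, which oxidises glycoproteins bound by these lectins, had the largest log2 fold change of the 9 tested members in this fit, while Sec61a1 exceeded it with DESeq2 (2.38 against 2.34), without isolated mitochondria replicate 2 (2.65 against 1.84) and without remaining tissue replicate 2 (2.14 against 2.07). Pdia3 (ENSMUSG00000027248, chr2:121413775-121438687, plus strand) had 52 and 58 normalized counts in remaining tissue and 199 and 248 in isolated mitochondria (22 and 49 reads). This was a log2 fold change of 2.0 ± 0.24 (SE, n = 2 per group; limma, adjusted p = 0.0197), and 9.04% of all genes tested had a larger one. Within a library, where scaling cancels, the ratio of Pdia3 to Calr was 0.256 and 0.259 in remaining tissue and 0.459 and 0.533 in isolated mitochondria, 1.92-fold higher on average. The ratio did not overlap between groups. With 2 libraries against 2 the exact permutation test, two-sided, can give no p below 0.333, which it gave for this ratio and for each of the 10 gene-to-gene ratios (0.333 also after Benjamini-Hochberg adjustment).

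Of the other disulfide-forming enzymes, P4hb was higher and Pdia6 did not pass the test. P4hb (ENSMUSG00000025130, chr11:120560298-120573253, minus strand), which is also the beta subunit of the prolyl 4-hydroxylase that modifies collagen, had 227 and 217 normalized counts in remaining tissue and 461 and 450 in isolated mitochondria (51 and 89 reads). The log2 fold change of P4hb was 1.03 ± 0.17 (SE, n = 2 per group; limma, adjusted p = 0.0333). Relative to P4ha1, the catalytic partner subunit, P4hb stood at 3.24 and 2.86 in remaining tissue and at 6.40 and 8.82 in isolated mitochondria. P4ha1 thus had far fewer reads there than P4hb, and the counting error of this ratio was not estimated. Pdia6 (ENSMUSG00000020571, chr12:17266545-17284770, plus strand) had 39 and 46 normalized counts in remaining tissue and 54 and 76 in isolated mitochondria, on only 6 and 15 reads. Its groups did not overlap, and its log2 difference was 0.59 ± 0.31 (SE, n = 2 per group; limma, adjusted p = 0.247). The ratio of the pooled values of Pdia6 was 1.60, with a 95% exact interval of 0.986 to 2.47 that covers counting error only.

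Serpinh1 (HSP47), the chaperone of procollagen, was the member with the widest spread. Serpinh1 (ENSMUSG00000070436, chr7:99345376-99353239, minus strand) had 84 and 132 normalized counts in remaining tissue and 118 and 420 in isolated mitochondria (13 and 83 reads). Replicate 1 of isolated mitochondria lay between the libraries of remaining tissue, and the log2 difference of 1.07 ± 0.70 (SE, n = 2 per group) did not pass the test (limma, adjusted p = 0.324). Without isolated mitochondria replicate 2 the difference was 0.16, and without replicate 1 it was 1.99. Against its main client the direction was opposite: the ratio of Serpinh1 to Col1a1, a chain of type I collagen, was 0.228 and 0.304 in remaining tissue and 0.0560 and 0.0828 in isolated mitochondria.

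The channel subunits had few reads in isolated mitochondria. Sec61a1, the pore subunit (ENSMUSG00000030082, chr6:88503579-88518905, minus strand), had 21 and 30 normalized counts in remaining tissue and 163 and 56 in isolated mitochondria (18 and 11 reads). Replicate 1 of isolated mitochondria was far above replicate 2, and both were above remaining tissue. The log2 difference of 1.89 ± 0.61 (SE, n = 2 per group) did not pass the test (limma, adjusted p = 0.109); it was 1.13 without isolated mitochondria replicate 1 and 2.65 without replicate 2, where it passed (adjusted p = 0.0352). Sec61a1 was called higher in 5 of 15 alternatives, which also took in scaling to nuclear genes, edgeR and DESeq2, and over all alternatives in which it was positive the adjusted p ranged from 0.00711 to 0.371. As a share of all reads it was called lower.

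Sec61b, the small tail-anchored subunit (ENSMUSG00000053317, chr4:47474658-47483242, plus strand), was listed at 6 and 8 normalized counts in remaining tissue and at 9 and 20 in isolated mitochondria. These are 1 and 4 reads, and its mean lay under the minimum of 20, so it was not tested. The pooled ratio of Sec61b was 2.33 with a 95% exact interval of 0.741 to 5.64, and a difference was not detectable at this depth. Sec61g, the remaining subunit of the channel, had 27 normalized counts in both libraries of remaining tissue and 9 and 10 in isolated mitochondria (1 and 2 reads). Sec61g also lay under the minimum and was not tested, and its pooled ratio was 0.361 (0.0742 to 1.06). No direction is read for Sec61b or Sec61g.

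**Figure D2:**
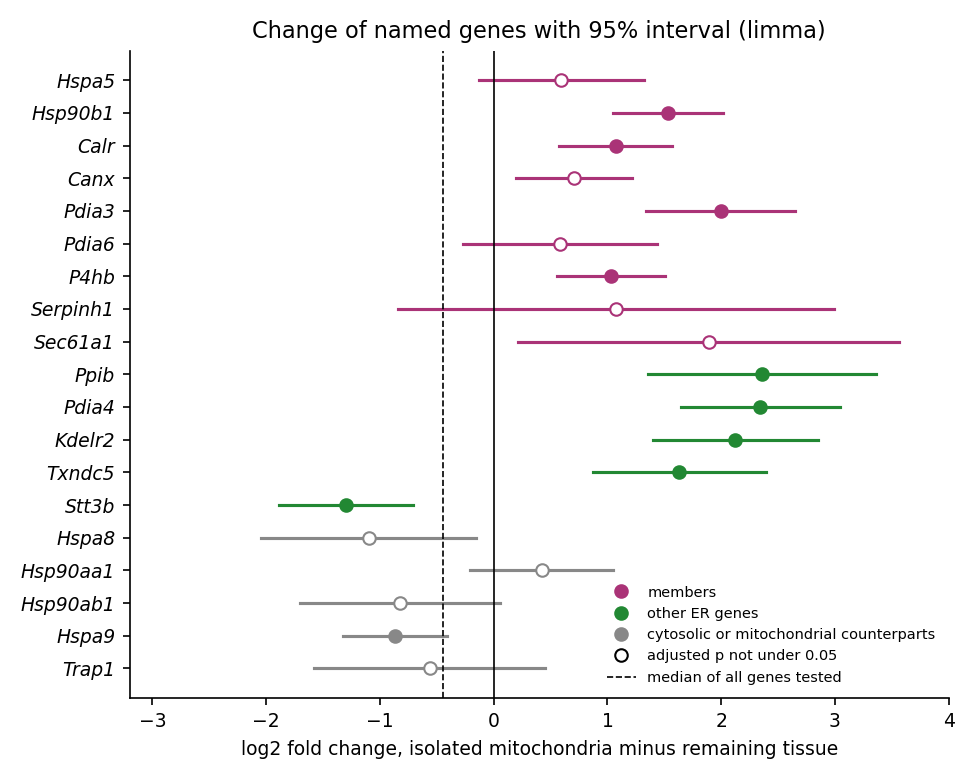
Log2 fold change (isolated mitochondria minus remaining tissue, deposited scale) of the tested members, of named genes of the ER folding and translocation list and of cytosolic and mitochondrial chaperones, with 95% limma intervals, filled points for an adjusted p under 0.05 and the median of all genes tested as a dashed line. The 9 members lie between 0.59 and 2.0; scaled to all reads, each of them is negative.

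The members kept much of their order in both fractions when levels were compared per kilobase of exon. P4hb and Calr were highest in remaining tissue, at 77.6 ± 2.47 and 74.1 ± 5.16 normalized counts per kilobase (SD, n = 2), and overlapped. Hsp90b1 at 44.9 ± 2.10, Serpinh1 at 44.2 ± 13.9, Hspa5 at 40.9 ± 7.69 and Canx at 39.95 ± 0.452 formed a second group, in which each neighbour overlapped the next. Pdia3 followed at 17.5 ± 1.35, Pdia6 at 11.3 ± 1.32, Sec61b at 5.51 ± 1.11 and Sec61a1 at 3.79 ± 0.945, without overlap between neighbours.

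In isolated mitochondria P4hb at 159 ± 2.72 and Calr at 156 ± 7.61 normalized counts per kilobase (SD, n = 2) again led and overlapped, followed by Hsp90b1 at 130 ± 3.51. Serpinh1 at 110 ± 87.4 overlapped its neighbours on both sides. Pdia3 at 71.2 ± 11.04 stood above Canx at 65.4 ± 5.12 and Hspa5 at 62.0 ± 12.04, though the 3 genes overlapped. Pdia6, Sec61a1 and Sec61b were lowest, at 17.4 ± 4.15, 16.3 ± 11.2 and 11.4 ± 6.12, and did not differ beyond their spread.

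Across the 9 tested members the median log2 difference was 1.07, and all 9 were positive. Over all 6916 genes tested the median was -0.44 and 36.9% were positive. The libraries of isolated mitochondria were above those of remaining tissue without overlap for 8 of 9 members, against 25.5% of all genes tested. Each tested member also exceeded the median of all genes by 1.03 to 2.44 on the log2 scale.

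The share of reads held by the 10 members depended on what it was taken of. Nuclear genes leave out predicted genes and pseudogenes, here and in the scalings to nuclear genes. Of reads on nuclear genes the members took 0.0702 and 0.0794% in remaining tissue (95% Wilson intervals 0.0687 to 0.0717 and 0.0778 to 0.0811). In isolated mitochondria the share was 0.299 and 0.344% (0.266 to 0.337 and 0.317 to 0.373), above both libraries of remaining tissue. Nuclear genes so defined took only 0.214 and 0.471% of all reads there, and mitochondrially encoded RNA 95.3 and 94.1%. Most of the other reads thus fell on the genes left out, and the direction is given for this denominator only. Among all reads, the members took 0.0514 and 0.0592% in remaining tissue but 0.000639 and 0.00162% in isolated mitochondria.

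**Figure D3:**
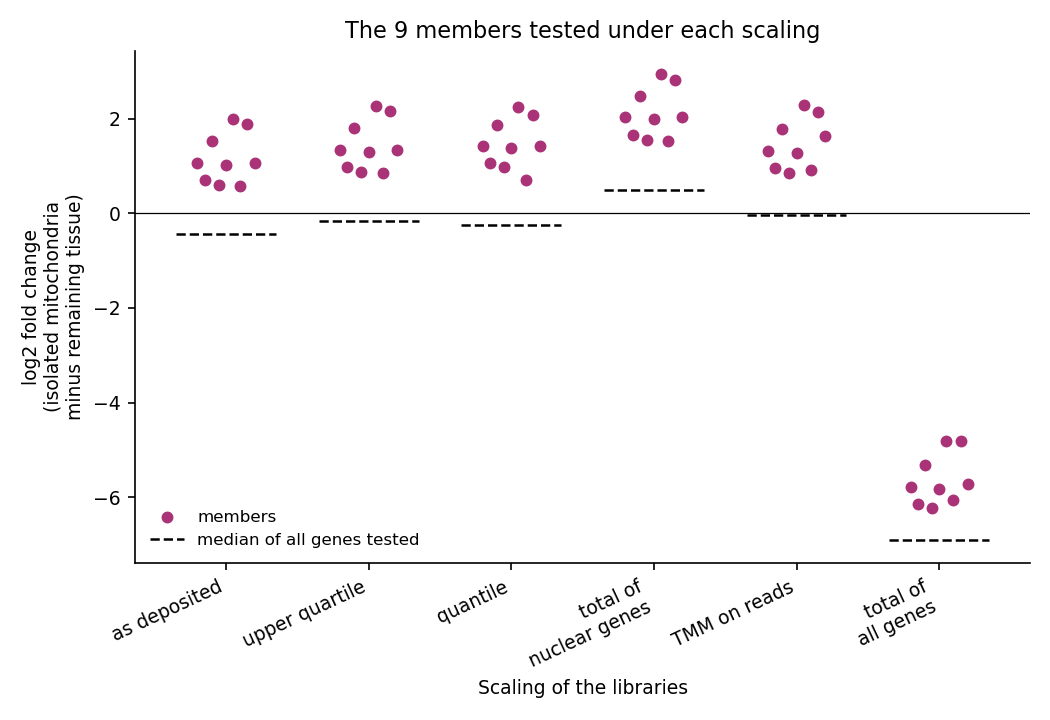
Log2 fold change of the 9 tested members (points) under each scaling of the libraries, isolated mitochondria minus remaining tissue, with the median of all genes tested. The members lie above that median under each scaling shown; their values are positive except where libraries are scaled to the total of all genes, with all 9 between -6.24 and -4.81.

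Other genes of ER folding and translocation did not move as one group. From a list of 70 such genes 69 were in the table and 52 were tested; 4 were higher and 1 was lower (limma, adjusted p under 0.05), with a median log2 difference of 0.12. The share of 4 in 52 is near the 7.32% of all genes tested that were higher, and nothing is read from it. The called genes are given with their values. Ppib, a collagen-folding prolyl isomerase, had 27 and 23 normalized counts in remaining tissue and 172 and 101 in isolated mitochondria, a log2 fold change of 2.36. Pdia4, a further disulfide isomerase, had 34 and 33 against 154 and 197 (2.34).

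Kdelr2, a receptor of the retrieval signal printed above, had a log2 fold change of 2.12. It had 28 and 30 normalized counts in remaining tissue and 145 and 116 in isolated mitochondria. Kdelr1, another such receptor, had 0.54, with overlapping groups, and did not pass the test (limma, adjusted p = 0.462). Txndc5, a thioredoxin-domain oxidoreductase, had 42 and 46 against 118 and 162 (1.63). Stt3b, a catalytic subunit of the oligosaccharyltransferase, was the gene that was lower, with a log2 fold change of -1.30. It had 154 and 166 normalized counts in remaining tissue and 63 and 66 in isolated mitochondria. There 1 read equals 9.049 and 5.059 normalized counts in replicates 1 and 2. The 5 called genes thus rest on few reads, and Stt3b on the fewest of them. Scaled to nuclear genes Stt3b had -0.34 and did not pass the test (limma, adjusted p = 0.320), nor did it with quantile normalization (adjusted p = 0.0541). None of the 5 called genes overlapped between groups, which adds little because they were chosen by the same fit. Without remaining tissue replicate 1 or replicate 2, Pdia4 alone of the 5 still passed, and scaled to all reads all 5 were lower.

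When the list was divided by role, a division made after its values were seen, the groups differed in their medians. The 16 tested folding enzymes, cochaperones and retrieval receptors had a median log2 difference of 0.95, with 4 higher, and the 6 tested genes of collagen modification had 0.98, with none called. Signal recognition, translocon and signal peptidase genes had a median of -0.37 over 16 tested genes, 11 of them negative and none called. The 7 tested oligosaccharyltransferase genes had 0.18, and the 7 of the unfolded protein response, among them Xbp1, Atf4 and Atf6, had -0.33. These are descriptions, and the difference between roles was not tested.

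The cytosolic and mitochondrial counterparts of the chaperones gave a comparison within each protein family. Of 15 such genes 14 were tested. None was higher and 1 was lower, with a median log2 difference of -0.38. Of all genes tested 7.32% were higher and 9.30% lower, and nothing is read from these counts. Hspa9 (mortalin), the HSP70 of the mitochondrial matrix, had 610 and 588 normalized counts in remaining tissue and 335 and 319 in isolated mitochondria. Its log2 fold change of -0.87 (limma, adjusted p = 0.0426) turned to 0.091 under scaling to nuclear genes. Hspa9 did not pass with upper quartile scaling (limma, adjusted p = 0.0999), quantile normalization (limma, adjusted p = 0.111) or edgeR (adjusted p = 0.0857). With DESeq2 it passed (adjusted p = 0.00684). Hspa8, the constitutive cytosolic HSP70, had 1036 and 1125 against 371 and 683, and did not pass the test (adjusted p = 0.104).

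The ratio of Hspa5 to Hspa8 was 0.145 and 0.174 in remaining tissue and 0.609 and 0.436 in isolated mitochondria, 3.25-fold higher on average. Relative to Hspa9 it was 0.246 and 0.333 against 0.675 and 0.934, 2.77-fold higher. Thus Hspa5, whose own difference did not pass the test, stood higher against both of its relatives in both libraries of isolated mitochondria than in either library of remaining tissue.

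In the HSP90 family, Hsp90b1 relative to cytosolic Hsp90ab1 was 0.0824 and 0.0878 in remaining tissue and 0.570 and 0.336 in isolated mitochondria, 5.15-fold higher. Relative to Hsp90aa1, the inducible cytosolic form, it was 2.24 and 2.01 against 4.37 and 4.83, and relative to mitochondrial Trap1 it was 1.07 and 1.13 against 6.37 and 3.53. Each of these ratios was thus higher in isolated mitochondria than in remaining tissue, with no overlap between groups, although Hsp90b1 stayed below Hsp90ab1 in every library. In isolated mitochondria Trap1 and Hsp90aa1 had fewer reads than Hsp90b1, and the counting error of these ratios was not estimated. Hsp90ab1, Hsp90aa1 and Trap1 themselves did not pass the test (limma, adjusted p = 0.152, 0.255 and 0.327).

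**Figure D4:**
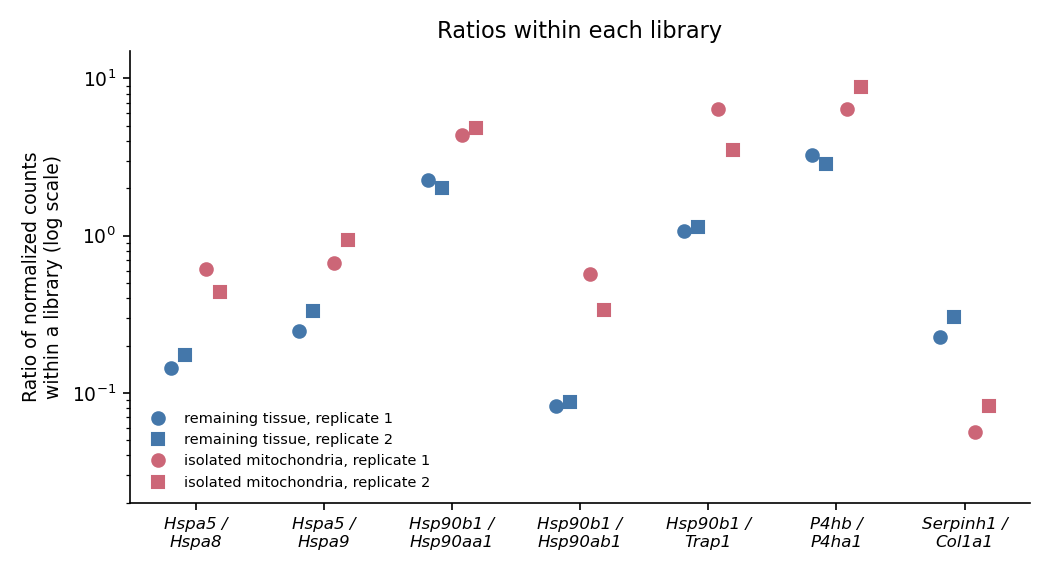
Ratios of normalized counts of a member to a second gene within the same library (log scale), 1 point per library, 2 libraries per group. Ratios of Hspa5 and Hsp90b1 to their relatives outside the ER are higher in isolated mitochondria, and that of Serpinh1 to Col1a1 is lower, at 0.0560 and 0.0828 against 0.228 and 0.304.

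The sarcoplasmic reticulum and the secreted cargo of the ER lay on opposite sides of the members. Both lists were chosen with earlier results of these data known, so the contrast is a description and not independent support. Of 16 sarcoplasmic reticulum genes 14 were tested. Of these 9 were lower, against 9.30% of all genes tested, and none was higher, with a median log2 difference of -2.31. Atp2a1, the calcium pump of fast fibres, had a log2 fold change of -2.84, the release channel Ryr1 -3.49 and the calcium buffer Casq1 -2.38, whereas Casq2 had 0.47 and did not pass the test. Of the 16 genes of secreted matrix, among them collagens and fibronectin, 14 were higher, against 7.32% of all genes tested, with a median of 3.0. The members summed to 0.0168 and 0.0191 of the sarcoplasmic reticulum genes in remaining tissue and to 0.241 and 0.294 in isolated mitochondria. Relative to the matrix genes the sum was 0.332 and 0.336 in remaining tissue and 0.116 and 0.0736 in isolated mitochondria. The members thus stood higher against sarcoplasmic reticulum mRNAs and lower against matrix mRNAs in both libraries of isolated mitochondria.

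**Figure D5:**
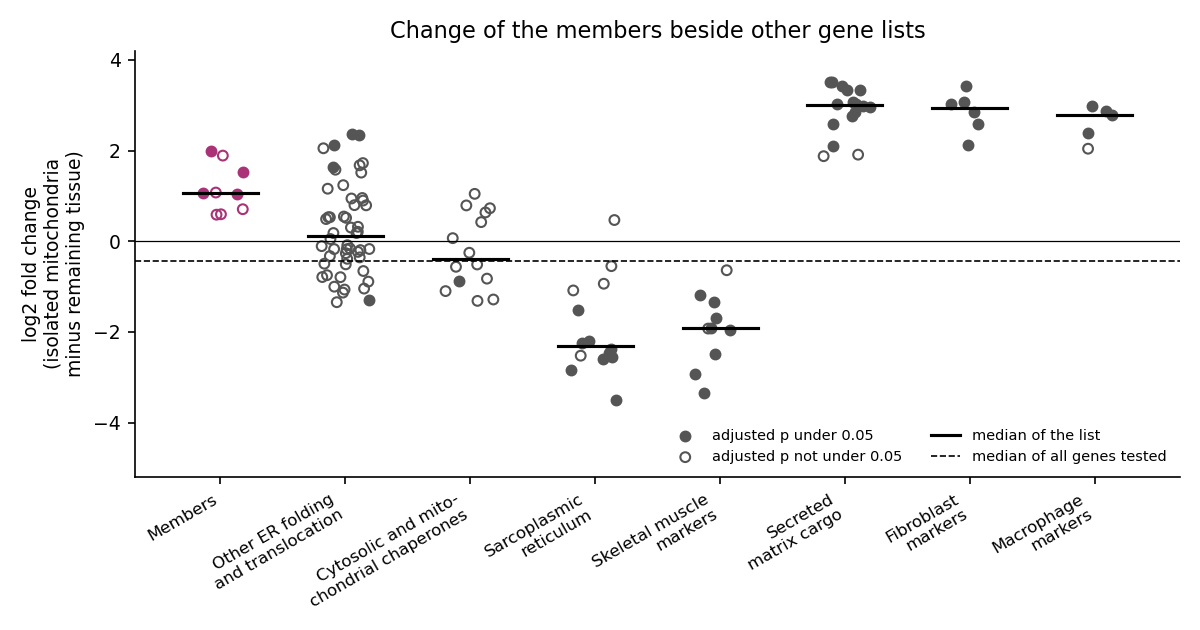
Log2 fold change (isolated mitochondria minus remaining tissue, deposited scale) of each tested gene, for the members, 4 other gene lists and 3 sets of cell type markers, with filled points for an adjusted p under 0.05, a bar at each list's median and the median of all genes tested (-0.44) as a dashed line. The medians were 1.07 for the members, 0.12 for other ER genes, -0.38 for the counterparts, -2.31 for sarcoplasmic reticulum and 3.0 for matrix genes; scaled to all reads, each of the members is negative.

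Markers of cell types moved with the groups as well. Their lists, too, were chosen with earlier results of these data known. Of all genes tested 7.32% were higher and 9.30% lower. The 10 skeletal muscle markers were present in every library and summed to 253521 and 264052 normalized counts in remaining tissue and 47353 and 46240 in isolated mitochondria; 8 were lower, with a median log2 difference of -1.91. All 6 fibroblast markers were higher (median 2.94), with sums of 1569 and 1675 against 10153 and 18571. Of 5 tested macrophage markers 4 were higher (median 2.78, sums of 100 and 121 against 614 and 819). The minimum mean of 20 is taken over all 4 libraries. A marker under it in remaining tissue could thus be tested only if isolated mitochondria held more, which favours a count of higher markers. Of 4 hepatocyte markers 1 passed the test as higher, and all 4 were above remaining tissue without overlap (median 5.54; sums of 229 and 41 against 10226 and 2064).

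Of 5 endothelial markers 1 was lower (median -2.59; sums of 483 and 473 against 90 and 126). No adipocyte, smooth muscle or Schwann cell marker passed the test, with medians of -0.82, -0.25 and 0.66 over 3, 3 and 1 genes tested. The 1 plasma cell marker in the table was listed at 1 and 1 against 9 and 20 normalized counts and was not tested. Relative to the fibroblast markers, the members summed to 0.730 and 0.767 in remaining tissue and to 0.243 and 0.156 in isolated mitochondria. Relative to the muscle markers the sums were 0.00452 and 0.00486 against 0.0522 and 0.0626. The part of these cell types in the values of the members was not tested, and the fragmentation time, adjusted for mitochondrial RNA, coincides with the groups and cannot be told apart from them.

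The promoters of several members share a sequence motif that is known from genes of the ER stress response. It was searched as CCAAT and CCACG, separated by any 9 bases, on both strands of RefSeq promoters (GRCm38.p6), from 250 bases before to 50 bases after the start, which were at hand for 9 members. The motif was found in 5 of them (55.6%), and in 39 of all 32851 promoters (0.119%). As the motif is known from genes of this kind, the contrast is a description and not a test. The matches are shown in the orientation of the motif, with its fixed bases in capitals.
Hspa5 (chr2:34772025-34772043): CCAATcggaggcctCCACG
Hsp90b1 (chr10:86705638-86705656): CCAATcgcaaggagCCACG
Hsp90b1 (chr10:86705533-86705551): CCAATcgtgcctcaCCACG
Calr (chr8:84847075-84847093): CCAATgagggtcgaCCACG
Canx (chr11:50325800-50325818): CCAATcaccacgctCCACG
Pdia6 (chr12:17266491-17266509): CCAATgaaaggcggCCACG
Relative to the gene, the match of Calr and the second match of Hsp90b1 lie in antisense orientation. Of the members with a match, Hsp90b1 and Calr were higher in isolated mitochondria and Hspa5, Canx and Pdia6 did not pass the test; of those without, Pdia3 and P4hb were higher. Sec61a1 was not among the promoters.

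The number of members past the threshold depended on the processing and on the libraries that were kept. Scaled to nuclear genes, 8 members were higher (against 18.0% of all genes tested), with upper quartile scaling 5 (8.95%), with quantile normalization 5 (7.88%), with no filter on low values 5 (4.04%) and with a mean of at least 5 it was 4 (2.39%). On reads, edgeR called 6 members higher (16.0%) and DESeq2 7 (20.3%), and eBayes without trend 2 (6.33%). Scaled to the total of all genes all 9 were lower, as were 96.8% of all genes tested.

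Leaving out remaining tissue replicate 1 or replicate 2 left no member past the threshold (4.28 and 4.53% of all genes were higher then). The log2 fold changes stayed at 1.49 and 1.58 for Hsp90b1, 1.92 and 2.07 for Pdia3, 1.00 and 1.14 for Calr and 1.07 and 1.00 for P4hb. Adjusted p-values were then 0.118 and 0.0897 for Hsp90b1, 0.0872 and 0.0574 for Pdia3, 0.433 and 0.329 for Calr and 0.376 and 0.427 for P4hb (limma). Over all alternatives they ranged up to these values, from 1.34e-24 for Hsp90b1, 1.97e-18 for Pdia3, 2.27e-11 for Calr and 1.35e-12 for P4hb with DESeq2. Without isolated mitochondria replicate 1 and without replicate 2, 5 and 6 members passed (24.9 and 23.8% of all genes).

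Exons of Hsp90b1, Pdia3, Pdia6 and Sec61a1 overlap those of other genes, on the opposite strand in each case and for Hsp90b1 also on its own. Sec61b shares 467 bases at 98.7% identity with the predicted gene Gm10320. The counts of these 5 members are therefore uncertain, among them those of Hsp90b1 and Pdia3, which were called.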

How the data were processed

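RNA sequencing of 2 libraries of isolated mitochondria and 2 of remaining tissue was analysed, grouped by the labels. According to the study's methods, with versions from the submitters' processing notes, reads were trimmed by Trimmomatic 0.39, alignment to mm10 (GRCm38) was done by STAR 2.7.10a, exonic reads without multi-mapping ones were counted by featureCounts 2.0.2, and DESeq2 1.30.1 was used to compare groups; the methods themselves name earlier versions of STAR, the counting tool and DESeq2. The strand setting of the counting is not given in the sources used here. The deposited values are a signal, gene counts that the authors divided by a size factor per library and rounded. Digitonin and RNase A treatment of mitochondria is described for the heart, and not stated for skeletal muscle.

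In isolated mitochondria values under 2000 were whole multiples of 9.049 and 5.059 normalized counts in replicates 1 and 2 (100.0% of 10508 and 100.0% of 11660 values, tolerance 0.55), so whole reads were recovered. In remaining tissue reads were estimated at 7.05 per normalized count from 8993 genes above 0 in all libraries. This assumes that both libraries of remaining tissue share the same size factor, which was not tested. Read totals and intervals of remaining tissue, pooled ratios, edgeR and DESeq2 rest on it.

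Testing used limma 3.58.1 in R 4.3.3 on log2(normalized count + 1) of genes with a mean of at least 20 (lmFit, eBayes with trend, no covariates), two-sided, with Benjamini-Hochberg adjustment over 6916 genes and a threshold of 0.05. This scale understates changes of low genes. Shares have 95% Wilson intervals; intervals cover counting error only. The fit was also run on simulated data with changes larger than those of the members. This run checked the code, and not power or error for the members. Alternatives were other scalings, filters and pseudocounts, edgeR 4.0.16, DESeq2 1.42.0, a replicate block and leaving out each library. Annotation was GENCODE M21; similarity between transcripts was searched with BLAST 2.17.0 (at least 50 bases).

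Members and lists were chosen with earlier results of these data known. Named genes were the members, up to 5 called genes in each direction of the ER list with the largest change, Sec61g and 5 counterparts.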

Additional observations from a re-analysis of the deposited data

How the results depend on the processing

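With libraries scaled to the total of all genes, every named gene was lower: log2 differences were -6.24 for Hspa5, -5.33 for Hsp90b1, -5.79 for Calr, -6.14 for Canx, -4.81 for Pdia3, -6.05 for Pdia6, -5.83 for P4hb, -5.72 for Serpinh1, -4.82 for Sec61a1, -4.39 for Ppib, -4.43 for Pdia4, -4.62 for Kdelr2, -5.13 for Txndc5 and -6.34 for Hsp90aa1. All 9 members were then called lower and 0 higher, with 38 of all genes higher and 6694 lower around a median of -6.90, and the higher genes made up 0.564% of calls against 44.0% on the deposited scale. Scaled to nuclear genes, 8 members were higher, with 1247 genes higher and 170 lower (88.0% of calls higher, median 0.50), and Hsp90ab1, Hspa9 and Trap1 turned to 0.14, 0.091 and 0.39. Higher genes made up 58.7% of calls with upper quartile scaling and 56.7% with quantile normalization, where 417 genes were lower.

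On reads, edgeR with TMM called 1105 genes higher and 871 lower (55.9% of calls higher) with 6 members among the former, and DESeq2 called 1404 higher and 877 lower (61.6%) with 7 members. A mean of at least 5 gave 283 genes higher and 399 lower, and no filter gave 3026 lower. eBayes without trend left 2 members higher, Hsp90b1 and Pdia3, and 374 genes lower. Leaving out 1 library at a time gave 296 to 1724 genes higher, 176 to 3198 lower, 0 to 6 members higher and no member lower; a lone library was assumed to vary like the other group. The replicate block, whose numbers are not known to mark shared animals (correlation of deviations 0.141), called 630 genes higher and 1144 lower, and 5 members were higher, the fifth being Sec61a1.

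Across the 15 alternatives the median of the members stayed 1.11 to 1.73 above the median of all genes on the log2 scale, and every tested member stayed above that median. Among the members, depth limits Pdia6, Sec61a1 and Sec61b most, which rest on 21, 29 and 5 reads in isolated mitochondria.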
